A study of Mus musculus with 6 samples.

Results

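Described here are 36 mouse genes of protein folding and quality control in the endoplasmic reticulum (ER), taken by symbol from a list of ER chaperones, disulfide-forming enzymes, ER-associated degradation factors, translocon subunits and unfolded protein response sensors. All 36 were listed in all 6 libraries, out of 18253 symbols found in at least 1 library, and all 36 reached at least 1 FPKM (mapped fragments divided by gene length and by the size of the library) in every library, so none was lost to the filter on low values. The libraries were made from total liver RNA of C57BL/6 mice labelled as postnatal day 21. In the ANIT group 3 libraries came from mice given ANIT, alpha-naphthylisothiocyanate, a chemical that injures bile ducts and causes cholestasis, and in the celastrol group 3 libraries came from mice given ANIT together with celastrol, a plant triterpenoid, with treatment labelled as lasting 5 days. Every library carries ANIT and none came from an untreated mouse, so no value can be set against healthy liver. Whether each library is from its own animal is not stated in the labels, so p-values measure only the spread between these samples.

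Secretory and membrane proteins enter the ER through the SEC61 channel, are folded there by chaperones such as BiP, receive disulfide bonds from protein disulfide isomerases, and are returned to the cytosol for destruction when folding fails. When unfolded proteins accumulate, the membrane sensors ATF6, IRE1 and PERK start the unfolded protein response, and ATF6 and the spliced form of XBP1 raise transcription of chaperone and degradation genes. Hepatocytes depend on this system because they secrete most plasma proteins.

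One DNA element through which this response acts is the ER stress response element (ERSE), written CCAAT, 9 bases of any kind, then CCACG. It was searched on both strands in the RefSeq promoter windows of build GRCm38.p6, which run from 250 bases before to 50 bases after a gene's start. Of the 36 genes 30 had a window. The element was found in 10 of these 30 (Hspa5, Hsp90b1, Calr, Canx, Dnajc3, Creld2, Pdia6, Ero1lb, Syvn1 and Derl3). It was found in 0.119% of all 32851 promoter windows, or 0.137% of the 27025 genes with a window. The related ERSE-II (ATTGG, 1 base of any kind, then CCACG) was found in Dnajb11 and Herpud1, against 0.0365% of windows (0.0444% of genes). The XBP1-type element TGACGTGG was found in none of the 30, against 0.676% of windows (0.714% of genes). The 3 elements share letters (CCACG, or CCAAT read on the other strand), so their matches could overlap; no gene of the 30 held more than 1 kind. A match describes letters and not binding. Parts of 7 windows are printed here, for abundant chaperones and for genes with a low (Creld2, Syvn1) or high (Derl3) ratio. That ratio sets celastrol replicate 2 against celastrol replicates 1 and 3 and is described further on. Capitals mark the 2 fixed parts of each ERSE, and matches on the opposite strand read CGTGG, 9 bases, ATTGG.
Hspa5, chr2:34772020-34772048, + strand: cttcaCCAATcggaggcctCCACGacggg
Hsp90b1, chr10:86705528-86705661, - strand: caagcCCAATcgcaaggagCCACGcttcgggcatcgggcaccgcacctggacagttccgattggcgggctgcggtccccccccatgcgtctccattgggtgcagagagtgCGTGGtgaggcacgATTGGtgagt
Calr, chr8:84847070-84847098, - strand: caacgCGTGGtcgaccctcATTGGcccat
Canx, chr11:50325795-50325823, - strand: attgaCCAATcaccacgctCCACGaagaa
Creld2, chr15:88819515-88819543, + strand: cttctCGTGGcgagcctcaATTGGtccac
Syvn1, chr19:6046527-6046555, + strand: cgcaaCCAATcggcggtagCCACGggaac
Derl3, chr10:75893237-75893265, + strand: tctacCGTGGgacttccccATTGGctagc

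FPKM tables give no read totals; from the spacing of their lowest values the libraries held an estimated 18940000 to 19820000 reads, so that 1 FPKM over 1 kilobase stood for 18.9 to 19.8 reads. The lowest value of any of the 36 genes was 2.45 FPKM. Most genes lay lower with celastrol: over the 10593 tested genes the log2 fold change had a median of -0.17 on the log2(FPKM + 1) scale, and at an adjusted p under 0.05 by limma 467 genes were higher and 2185 lower. Median-ratio scaling, which brings the typical gene to the same level in each library, moved that median to 0.0 and left 889 higher against 1053 lower genes, and changes of the ER genes are therefore also given relative to it. The share of all FPKM held by the 10 most abundant genes was 20.3% to 21.9% in the ANIT group, 20.7% in celastrol replicate 2, and 33.2% and 31.5% in celastrol replicates 1 and 3, so replicate 2 stood apart from the rest of its group. The liver label was checked on hepatocyte markers: all 12 were tested, 3 were higher and 1 was lower, with a summed level of 50169.4 to 61429.9 FPKM with ANIT and 37157.4 to 43701.5 with celastrol. Albumin, Alb, was the gene that fell, and the sum of the other 11 went the opposite way. It was 20637.7 to 24598.8 FPKM with ANIT and 27106.0 to 38138.2 with celastrol. The 3 higher genes were Fga, Fgb and Cyp2e1. Fga rose from a mean of 3054.7 to 7946.0 FPKM and Fgb from 4497.9 to 10840.0 FPKM. Of the rest, Hnf4a and Tdo2 had log2 fold changes above 0, and Apoa1, Apob, Ttr, Tat, Cps1 and Serpina1a below 0. The median log2 fold change of the 12 was -0.13. Of the other marker lists, 4 of 8 tested neutrophil genes and 1 of 10 endothelial genes were higher; 1 of 4 cholangiocyte (Krt19), 1 of 8 stellate and fibroblast (Timp1), and 1 of 2 plasma and B cell genes (Sdc1) were lower; none of 12 macrophage genes or 1 acinar gene passed. Krt19, Timp1 and the neutrophil gene Ngp entered the test only through the group in which they were high, and each also passed with no filter; the other tested plasma cell gene, Derl3, is itself among the 36. Their part in the results below was not tested, and in bulk RNA fewer cells of a type and less RNA per cell cannot be told apart.

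Genes of the ER folding and quality control set mostly lay lower with celastrol. Of the 36, 11 fell at an adjusted p under 0.05 (limma), or 30.6%, against 20.6% of all tested genes; 33 had a log2 fold change below 0, or 91.7%, against 72.1%. In 22 genes, or 61.1%, all celastrol libraries lay below all ANIT libraries, against 36.6% of tested genes, and in none did they all lie above (8.35% of tested genes). None of the 36 rose, against 4.41% of tested genes. The median log2 fold change was -0.41, lower than the median of all tested genes by 0.24 on the log2 scale. Summed over the 36 genes the level was 5419.0, 5013.6 and 4689.1 FPKM in ANIT replicates 1, 2 and 3 and 4227.8, 3218.4 and 3743.4 FPKM in celastrol replicates 1, 2 and 3. The groups did not overlap in this sum, which was 0.934% ± 0.0710 of all FPKM with ANIT and 0.632% ± 0.0780 with celastrol (SD, n = 3 each). The excess over other genes in the number of calls was lost under scaling: with median-ratio scaling 1 of the 36 fell (2.78%, against 9.94% of all genes), and after quantile normalization 2 fell (5.56%, against 9.11%), while the median lay 0.21 and 0.15 below that of all genes. When rescaled to TPM 22 fell (61.1%, against 36% of all genes).

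**Figure D1:**
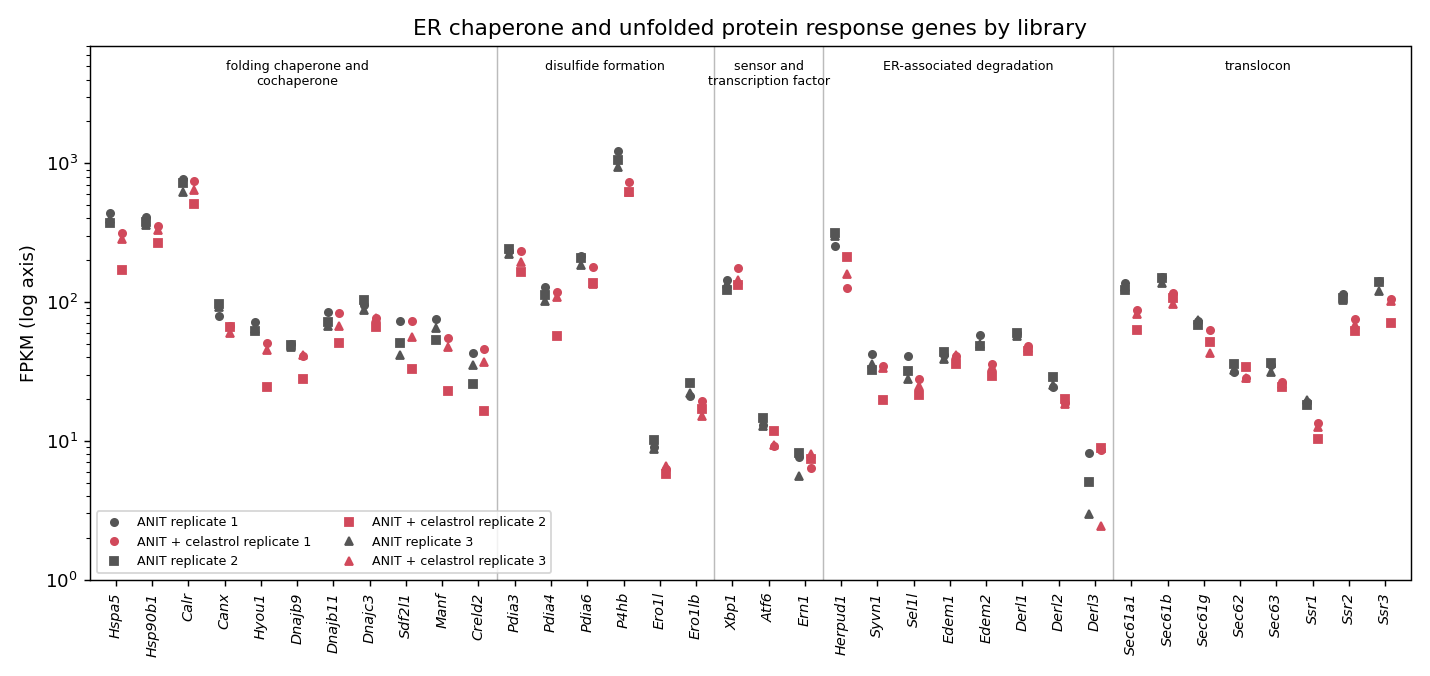
FPKM of each of the 36 genes in each of the 6 libraries on a log axis, grouped by role; grey symbols are ANIT and red symbols ANIT plus celastrol, with the symbol shape giving the replicate number. The translocon genes separate by group in 7 of 8 cases, all lower with celastrol, against 36.6% of all tested genes. Among the chaperones the red square of celastrol replicate 2 lies lowest in 10 of 11, against 12.8% of all tested genes.

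The translocon, the channel and its partner proteins, held the most calls. Of its 8 genes 5 fell (62.5%, against 20.6% of all tested genes). In 7 of 8 (87.5%, against 36.6% of tested genes) the celastrol libraries lay entirely below ANIT. The median log2 fold change was -0.51. None of the 8 passed under median-ratio scaling or after quantile normalization. Sec61a1 (chromosome 6, positions 88503579 to 88518905 in mm10), which encodes the pore of the channel, measured 138.00, 121.71 and 127.50 FPKM in ANIT replicates 1, 2 and 3 and 87.60, 62.30 and 82.30 FPKM in celastrol replicates 1, 2 and 3. The groups were well apart, with celastrol replicate 2 lowest. Its log2 fold change was -0.74 (SE 0.16, adjusted p = 0.015 by limma). The small subunit Sec61b measured 151.41, 148.37 and 137.47 FPKM in the ANIT libraries against 116.57, 106.91 and 97.27 FPKM in the celastrol libraries. Its log2 fold change was -0.45 (SE 0.13, adjusted p = 0.040 by limma). The third subunit, Sec61g, lay at 71.7 ± 3.52 FPKM with ANIT and 52.6 ± 10.1 with celastrol (SD, n = 3 each). It did not pass (log2 fold change -0.46, adjusted p = 0.070 by limma).

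The translocon-associated protein complex, encoded by the Ssr genes, sits beside the channel and assists the entry of some proteins. Ssr1 (chromosome 13, positions 37966605 to 37994217) measured 19.06, 18.19 and 19.78 FPKM in the ANIT libraries against 13.34, 10.25 and 12.47 FPKM in the celastrol libraries. It had the smallest p of the 36 genes (log2 fold change -0.63, SE 0.12, adjusted p = 0.0096 by limma). Ssr2 measured 114.12, 105.95 and 102.58 FPKM in the ANIT libraries against 75.45, 61.58 and 68.42 FPKM in the celastrol libraries, a log2 change of -0.65 (SE 0.13, adjusted p = 0.012 by limma). Ssr3 measured 142.43, 139.75 and 119.35 FPKM in the ANIT libraries against 104.20, 70.24 and 101.06 FPKM in the celastrol libraries, also without overlap, but missed the threshold (log2 fold change -0.56, adjusted p = 0.058 by limma). The fourth subunit, Ssr4, which is not among the 36, fell from 203 ± 11.3 to 118 ± 22.9 FPKM (SD, n = 3 each; log2 fold change -0.79, adjusted p = 0.015 by limma). Celastrol was therefore below ANIT in every library for each of the Ssr genes.

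Sec62 and Sec63 are partners of the channel in post-translational entry. Sec63, a membrane J-domain protein that recruits BiP to the channel, measured 35.11, 36.29 and 31.17 FPKM in the ANIT libraries against 26.52, 24.55 and 25.54 FPKM in the celastrol libraries and fell (log2 fold change -0.40, SE 0.11, adjusted p = 0.032 by limma). Of the 8 translocon genes Sec62 was the 1 whose groups overlapped, at 31.14, 35.62 and 32.37 FPKM in the ANIT libraries against 28.18, 33.82 and 28.50 FPKM under celastrol (log2 fold change -0.13, 95% interval -0.41 to 0.15, adjusted p = 0.45 by limma). The difference between these partners was not tested.

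Of 6 genes of disulfide formation 2 fell (33.3%, against 20.6% of all tested genes), and 4 had celastrol libraries entirely below ANIT (66.7%, against 36.6%). P4hb (chromosome 11, positions 120560298 to 120573253), protein disulfide isomerase itself and the most abundant of the 36 genes, measured 1222.75, 1049.75 and 936.49 FPKM in the ANIT libraries against 727.00, 622.50 and 619.36 FPKM in the celastrol libraries. The lowest ANIT library stood above the highest celastrol library, and the mean with celastrol was 61.4% of that with ANIT (log2 fold change -0.70, SE 0.16, adjusted p = 0.020 by limma). Ero1l, now named Ero1a, encodes the oxidase that passes electrons from protein disulfide isomerase to oxygen; it measured 9.04, 10.20 and 8.70 FPKM in the ANIT libraries against 6.25, 5.73 and 6.56 FPKM in the celastrol libraries. Its replicates lay close together and it fell (log2 fold change -0.52, SE 0.10, adjusted p = 0.010 by limma).

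The second oxidase, Ero1lb, measured 22.9 ± 2.75 and 17.0 ± 2.13 FPKM (SD, n = 3 each), without overlap, and just missed the threshold (log2 fold change -0.41, adjusted p = 0.058 by limma). Pdia6, an isomerase that also restrains IRE1 signalling, measured 202 ± 14 and 150.3 ± 23.5 FPKM, likewise without overlap (adjusted p = 0.073 by limma). Pdia3, which folds glycoproteins with calnexin and calreticulin, and Pdia4 had overlapping groups: Pdia4 measured 127.32, 112.10 and 101.65 FPKM in the ANIT libraries against 118.76, 57.07 and 107.80 FPKM in the celastrol libraries, so that celastrol replicate 2 alone lay below the ANIT range (adjusted p = 0.41 by limma).

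Among the 11 folding chaperones and cochaperones all had log2 fold changes below 0 (median -0.38), as had 72.1% of all tested genes. In 6 (54.5%, against 36.6% of tested genes) all celastrol libraries lay below ANIT, and 1 fell (9.09%, against 20.6%). That gene was Canx, which encodes calnexin, the membrane lectin that holds glycoproteins during folding. It measured 79.03, 96.70 and 92.40 FPKM in the ANIT libraries against 67.65, 65.79 and 59.40 FPKM under celastrol (log2 fold change -0.47, SE 0.13, adjusted p = 0.037 by limma). Its soluble counterpart calreticulin, Calr, the second most abundant of the 36 genes, had overlapping groups, at 773.42, 723.20 and 623.05 FPKM in the ANIT libraries against 744.64, 510.04 and 642.58 FPKM in the celastrol libraries. The log2 fold change of Calr was -0.17 (95% interval -0.60 to 0.26, adjusted p = 0.52 by limma), and 0.04 under median-ratio scaling.

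Hspa5 (chromosome 2, positions 34771970 to 34777547), which encodes BiP, the central ER chaperone and the standard marker of the response, measured 438.71, 372.92 and 397.58 FPKM in the ANIT libraries against 312.09, 169.84 and 284.48 FPKM in the celastrol libraries. Every celastrol library lay below every ANIT library, and the spread within celastrol was wide, with replicate 2 far below the other two. The log2 fold change was -0.70 (SE 0.24, 95% interval -1.25 to -0.15, adjusted p = 0.064 by limma). Among the scaling and leave-one-out alternatives, Hspa5 passed without celastrol replicate 2 and when rescaled to TPM. Its nucleotide exchange partner Hyou1 showed the same arrangement, at 72.31, 61.65 and 63.38 FPKM in the ANIT libraries against 50.52, 24.29 and 44.82 FPKM under celastrol (log2 fold change -0.77, adjusted p = 0.067 by limma), and it too passed under these 2 settings.

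Among the folding chaperones and cochaperones, the cofactors of BiP included genes with and without overlap between groups. None of these cofactors passed, and differences between them were not tested. Dnajc3 (95.6 ± 7.98 and 73.3 ± 6.73 FPKM, SD, n = 3 each; adjusted p = 0.071 by limma) and Dnajb9 (48.7 ± 1.28 and 36.6 ± 7.47 FPKM; adjusted p = 0.095) had no overlap and did not pass. Hsp90b1, the ER-resident HSP90, was also without overlap at 383 ± 26.4 and 315 ± 44.1 FPKM (SD, n = 3 each; adjusted p = 0.20 by limma). In Dnajb11, Sdf2l1, Manf and Creld2 the groups overlapped. Sdf2l1, a component of BiP complexes, measured 73.32, 50.60 and 41.54 FPKM in the ANIT libraries against 72.84, 32.92 and 55.50 FPKM in the celastrol libraries, and Creld2, a secreted stress-induced protein, measured 43.06, 25.52 and 35.02 FPKM in the ANIT libraries against 45.94, 16.44 and 36.95 FPKM in the celastrol libraries. For these 2 genes the 95% intervals of the log2 fold change, -0.83 to 0.70 and -1.09 to 0.79, allow a change in either direction. The values of Sdf2l1, Creld2 and Dnajb11 turned positive under median-ratio scaling, at 0.14, 0.06 and 0.03.

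In ER-associated degradation 3 of 8 genes fell (37.5%, against 20.6% of all tested genes). Herpud1 (chromosome 8, positions 94386438 to 94395377), a membrane scaffold of the degradation complex that is strongly induced by ER stress, measured 253.97, 315.92 and 296.50 FPKM in the ANIT libraries against 126.65, 210.97 and 158.46 FPKM in the celastrol libraries. It had the lowest log2 fold change of the 36 genes (-0.83, SE 0.20, adjusted p = 0.024 by limma) and was the 1 gene that still passed under both median-ratio scaling (-0.61, adjusted p = 0.045) and quantile normalization (-0.59, adjusted p = 0.039). Unlike in Hspa5, celastrol replicate 2 held the highest of the celastrol values. The Herpud1 call was lost when ANIT replicate 2 or 3, or celastrol replicate 1 or 3, was left out.

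Edem2, which starts mannose trimming of misfolded glycoproteins, measured 58.23, 48.06 and 49.57 FPKM in the ANIT libraries against 35.73, 29.13 and 34.07 FPKM under celastrol (log2 fold change -0.64, SE 0.13, adjusted p = 0.014 by limma). Its relative Edem1 overlapped, at 41.2 ± 2.31 and 39.3 ± 3.13 FPKM (SD, n = 3 each; log2 fold change -0.07, 95% interval -0.34 to 0.20, adjusted p = 0.69 by limma), and turned positive, at 0.14, under median-ratio scaling. The direct difference between these relatives was not tested.

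Derlins are membrane proteins of the retrotranslocation complex. Derl2 measured 24.30, 28.90 and 25.03 FPKM in the ANIT libraries against 18.80, 19.87 and 18.33 FPKM in the celastrol libraries, and it fell (log2 fold change -0.43, SE 0.11, adjusted p = 0.025 by limma). Derl1 was without overlap, at 58.8 ± 1.94 and 46.2 ± 2.13 FPKM (SD, n = 3 each), and missed the threshold (adjusted p = 0.055 by limma). Derl3, which is prominent in specialised secretory cells, was the least abundant of the 36 genes and varied within both groups, at 8.16, 5.07 and 2.98 FPKM in the ANIT libraries against 8.58, 8.86 and 2.45 FPKM in the celastrol libraries (adjusted p = 0.81 by limma). Of the 12 plasma and B cell markers, 10 stayed under 1 FPKM in every library, with Jchain and Mzb1 at most at 0.29 and 0.78 FPKM; besides Derl3 the exception was Sdc1, which lay at 59.6 to 134.04 FPKM and fell. The ubiquitin ligase Syvn1 and its partner Sel1l had overlapping groups, at 36.9 ± 5.07 and 29.3 ± 8.41 FPKM for Syvn1 and 33.5 ± 6.62 and 24.7 ± 3.32 FPKM for Sel1l (SD, n = 3 each; adjusted p of 0.27 and 0.11 by limma).

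None of the 3 sensor and transcription factor genes passed. Xbp1 (chromosome 11, positions 5520659 to 5525893), whose RNA is spliced by IRE1 into the active form, measured 143.35, 121.57 and 135.37 FPKM in the ANIT libraries against 174.34, 133.04 and 142.90 FPKM in the celastrol libraries. The groups overlapped and the log2 fold change was 0.16 (SE 0.15, 95% interval -0.18 to 0.51, adjusted p = 0.45 by limma); a gene-level value does not separate spliced from unspliced RNA. Ern1, which encodes IRE1, measured 7.64, 8.20 and 5.61 FPKM in the ANIT libraries against 6.40, 7.44 and 8.02 FPKM in the celastrol libraries, again overlapping (log2 fold change 0.03, SE 0.15, 95% interval -0.31 to 0.37, adjusted p = 0.88 by limma). Atf6, which encodes the sensor that is cut in the Golgi into a transcription factor, measured 12.93, 14.67 and 12.75 FPKM in the ANIT libraries against 9.21, 11.77 and 9.25 FPKM in the celastrol libraries. Its groups did not overlap, and it narrowly missed the threshold (log2 fold change -0.39, SE 0.12, 95% interval -0.67 to -0.11, adjusted p = 0.052 by limma).

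**Figure D2:**
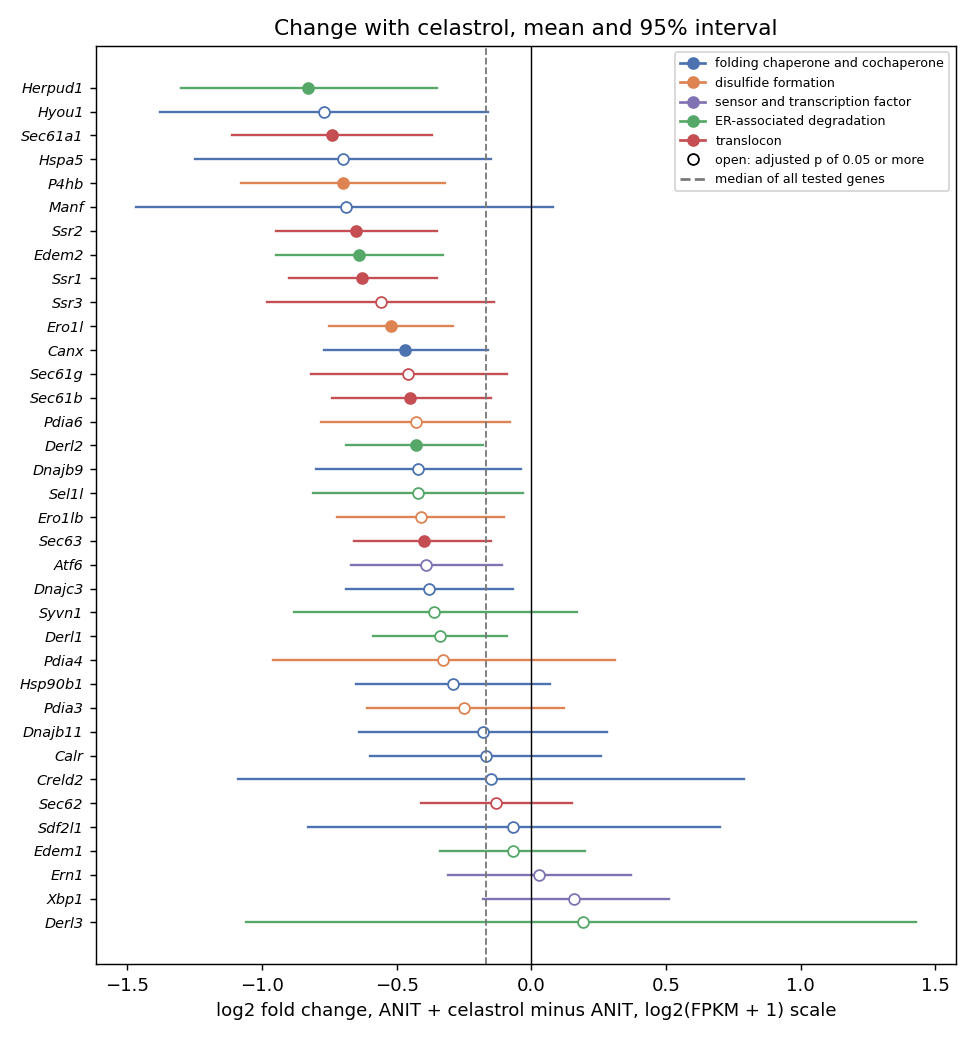
Log2 fold change (celastrol minus ANIT, log2(FPKM + 1) scale) of each of the 36 genes with its 95% interval from limma, coloured by role; filled points passed an adjusted p of 0.05, and the dashed line is the median of all tested genes at -0.17. Filled points run from -0.83 (Herpud1) to -0.40 (Sec63), and Derl3, Xbp1 and Ern1 are the 3 genes above 0.

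Within the celastrol group the ER genes were often lowest in 1 library. Celastrol replicate 2 held the lowest of the 3 celastrol values in 24 of the 36 genes (66.7%), against 19.3% of all tested genes, and the lowest of all 6 values in 23 (63.9%, against 12.8%). The ratio of celastrol replicate 2 to the mean of celastrol replicates 1 and 3 had a median of 0.844 over the 36 genes and 1.14 over all tested genes. These counts describe 1 library, have no test, and their cause was not tested. The lowest ratios were those of Creld2 (0.397), Manf (0.444), Pdia4 (0.504), Hyou1 (0.510), Sdf2l1 (0.513), Hspa5 (0.569) and Syvn1 (0.574), most of them chaperones or cofactors inside the ER. Manf, a secreted neurotrophic factor and BiP cofactor, measured 75.42, 53.28 and 64.61 FPKM in the ANIT libraries against 54.85, 22.71 and 47.46 FPKM in the celastrol libraries.

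Ratios above 1 were found in 7 genes, led by Derl3 (1.61), Herpud1 (1.48), Atf6 (1.28) and Sec62 (1.19). Derl3 measured 8.58, 8.86 and 2.45 FPKM in celastrol replicates 1, 2 and 3, so replicate 2 lay near replicate 1 and replicate 3 was low. By role, celastrol replicate 2 was the lowest celastrol library in 10 of 11 chaperones, 3 of 6 disulfide genes, 1 of 3 sensors, 5 of 8 degradation genes and 5 of 8 translocon genes. The 10 genes with an ERSE, printed in part above, had a median ratio of 0.815 (range 0.397 to 1.61), and the 18 with a promoter window and neither element had one of 0.854 (range 0.504 to 1.19). Of the 10 genes with an ERSE 1 fell and 6 had no overlap between groups, and of those 18 genes 7 fell and 10 had no overlap. Of all tested genes 20.6% fell and 36.6% lay lower with celastrol without overlap.

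**Figure D3:**
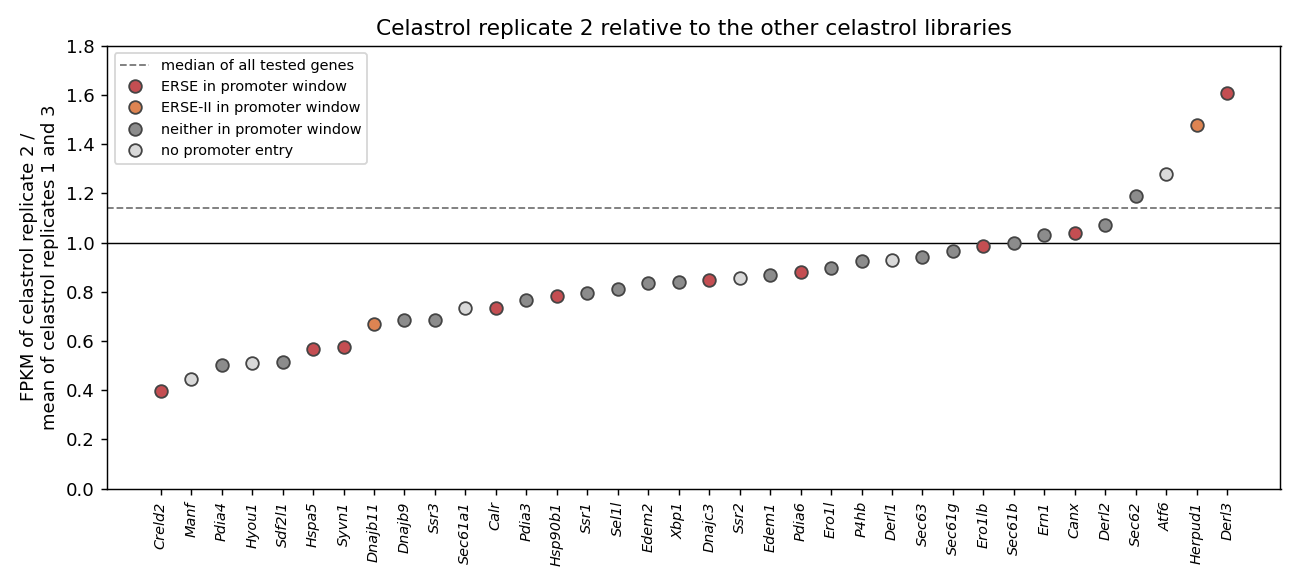
Ratio of FPKM in celastrol replicate 2 to the mean of celastrol replicates 1 and 3 for each of the 36 genes, sorted and coloured by the element found in the promoter window; the solid line is 1 and the dashed line the median of all tested genes, 1.14. Genes with an ERSE run along the whole order, from Creld2 at 0.397 to Derl3 at 1.61. Those with a promoter window and neither element run from 0.504 to 1.19.

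Other genes of the same pathways were counted in 5 lists, to be read against the 20.6% of all tested genes that fell, the 4.41% that rose and the median of -0.17. Of 32 tested genes of N-glycosylation and glycan trimming 15 fell (46.9%) and none rose (median log2 fold change -0.43). Mogs, the glucosidase that removes the first glucose of the glycan, went from 20.8 ± 0.405 to 12.6 ± 0.56 FPKM (SD, n = 3 each; log2 fold change -0.69, adjusted p = 0.0029 by limma), and the mannosyltransferase gene Alg3 had a log2 change of -0.65 (adjusted p = 0.0039). Of 38 tested further degradation genes 17 fell (44.7%) and none rose (median -0.35), led by Ubxn4, a recruiter of the p97 ATPase (-0.77, adjusted p = 0.0049 by limma), and Erlin1 (-0.67, adjusted p = 0.0063).

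Of 32 further translocation and signal processing genes 13 fell (40.6%) and none rose (median -0.36). Rrbp1, which encodes the ribosome-binding protein of the rough ER, measured 157.29, 173.81 and 157.41 FPKM in the ANIT libraries against 80.88, 76.75 and 70.40 FPKM in the celastrol libraries, less than every one of the ANIT values (log2 fold change -1.09, SE 0.12, adjusted p = 0.0016 by limma). Srprb, a subunit of the signal recognition particle receptor, fell from 15.8 ± 1.33 to 8.94 ± 1.3 FPKM (SD, n = 3 each; adjusted p = 0.0062 by limma). Of 40 further folding enzymes and cofactors 9 fell (22.5%) and 2 rose (5.0%; Dnajc18 and Fkbp7), with a median of -0.23, shares near those of all genes; those with the smallest p were Txndc5, an ER thioredoxin, at 112.5 ± 2.24 and 58.1 ± 4.28 FPKM (log2 fold change -0.95, adjusted p = 0.0022 by limma), and Gpx7 (-0.79, adjusted p = 0.0099). Gpx7 reached 1 FPKM in the ANIT libraries alone and so entered the test only through the group in which it was high; it also passed with no filter (adjusted p = 0.019 by limma). Under median-ratio scaling 4, 6, 3 and 3 genes of these 4 lists fell, in the order given, and 3 folding genes rose; after quantile normalization 3 folding genes fell and 5 rose.

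Of 29 other sensor and stress response genes 9 fell (31.0%) and 1 rose (3.45%), with a median log2 fold change of -0.34. Among those that fell was Sdc1, which is also counted on the plasma and B cell list. The gene that rose was Chac1, a glutathione-degrading enzyme induced by ATF4, which measured 1.73, 2.39 and 1.93 FPKM in the ANIT libraries against 5.22, 6.44 and 6.10 FPKM under celastrol (log2 fold change 1.20, SE 0.12, adjusted p = 0.0011 by limma). Atf3, a stress-induced transcription factor, moved in the other direction, at 5.0, 12.83 and 12.86 FPKM in the ANIT libraries against 0.23, 0.47 and 0.41 FPKM under celastrol (log2 fold change -2.94, SE 0.33, adjusted p = 0.0024 by limma). Atf3 entered the test only through the ANIT libraries, since all celastrol values lay under 1 FPKM; with no filter its adjusted p was 0.0050 (limma). Neither pair of groups overlapped, and both calls held under every alternative in which the gene was tested. Atf4 itself and the listed genes Trib3, Ddit3 and Asns had negative log2 fold changes, at -0.32, -2.07, -0.75 and -0.35. Of these Trib3 passed (adjusted p = 0.003 by limma). Atf4 and Ddit3 were lower without overlap and did not pass, and the groups of Asns overlapped.

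Which of the 36 genes passed depended on single libraries. Leaving out ANIT replicate 1 gave 5 calls (12.1% of all tested genes then being lower), leaving out ANIT replicate 2 gave 3 (9.53%), and leaving out ANIT replicate 3 gave 7 (14.4%). Leaving out celastrol replicate 1 gave 5 calls (8.58%), celastrol replicate 2 gave 16 (31.4%) and celastrol replicate 3 gave 5 (12.3%). Ero1l, Edem2 and Ssr1 passed in each of these 6 fits. None of these genes passed under median-ratio scaling or after quantile normalization. Without celastrol replicate 2 all 11 still passed and Hspa5, Hyou1, Atf6, Derl1 and Ssr3 joined them.

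**Figure D4:**
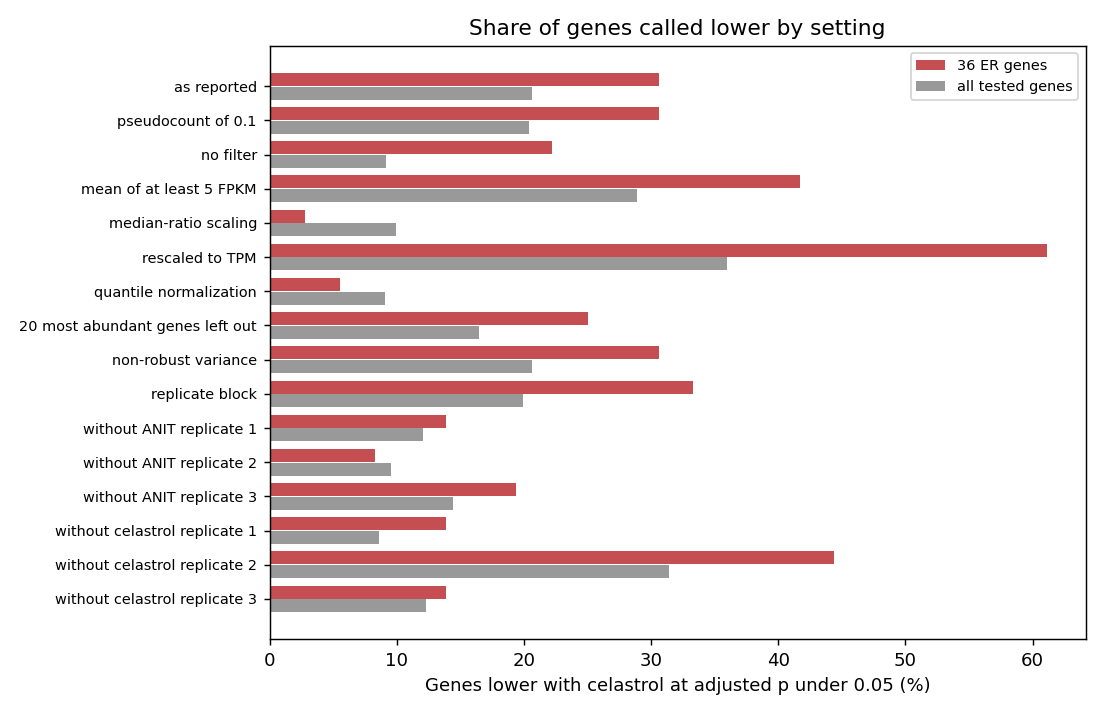
Share of the 36 ER genes (red bars) and of all tested genes (grey bars) called lower with celastrol at a limma adjusted p under 0.05, in percent, as reported and under each alternative setting. The red bar is the longer one as reported (30.6% against 20.6%) and the shorter one under median-ratio scaling (2.78% against 9.94%), after quantile normalization (5.56% against 9.11%) and without ANIT replicate 2 (8.33% against 9.53%).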

How the data were processed

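RNA from frozen mouse liver was sequenced in 3 libraries given ANIT and 3 given ANIT plus celastrol; the titles gave each library its group and replicate number. Each library has a deposited table of gene symbols and FPKM, per the file headers. HISAT2, featureCounts and the mouse build mm10 are named, with no versions, in the submitters' processing notes. Not given in the sources used here were the annotation, the gene lengths and whether counting used strand; overlapping genes and near-identical copies are therefore uncertain.

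Symbols absent from a table were given the value 0, and 2 repeated date-like names were dropped. The test was limma 3.58.1 (R 4.3.3) on log2(FPKM + 1), comparing the groups with trended, robust empirical Bayes variances and no other term, over genes that reached 1 FPKM in 3 or more libraries; a gene was called at a Benjamini-Hochberg adjusted p under 0.05 over all genes tested. The fit was tested on simulated data. Reads per library were estimated from the spacing of FPKM values between 0.1 and 1.0 of genes with 1 transcript and 400 to 2500 bases; no count model was run. Gene coordinates came from GENCODE M21 (mm10), which held 96.3% of the symbols. Promoter sequences came from RefSeq (GRCm38.p6).

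The members and the lists of related genes and cell type markers were chosen with earlier results of these data known. Of each related list the text names the 2 tested genes with the smallest p. Full statistics are given for members that passed and for Hspa5, Xbp1, Atf6 and Ern1. Ssr4, Dnajc18, Fkbp7, Sdc1, Atf4, Trib3, Ddit3, Asns, the other members given in full and the marker genes named singly were chosen after their values were seen. The alternatives were a pseudocount of 0.1, no filter, a mean of at least 5 FPKM, median-ratio scaling, rescaling to TPM, quantile normalization, the 20 most abundant genes left out, a replicate block, non-robust variance, and leaving out each library.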

Additional observations from a re-analysis of the deposited data

How the results depend on the processing

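The median log2 fold change of the 36 genes stayed below 0 under all 15 alternatives, from -0.54 to -0.14, and no alternative called any of the 36 higher. Counts of calls moved more, and the cause was not tested. Of all tested genes 2652 were called, 4202 when rescaled to TPM, and 1127 to 3841 with 1 library left out. The 11 falls among the 36 genes became 1 under median-ratio scaling, 22 when rescaled to TPM and 2 after quantile normalization, and 3 to 16 with 1 library left out. Falls among related genes, in the order glycosylation (15), folding (9), degradation (17), translocation (13) and sensors and stress response (9), were 4, 3, 6, 3 and 3 under median-ratio scaling, 25, 19, 29, 25 and 17 when rescaled to TPM, and 3, 3, 4, 2 and 3 after quantile normalization. With the 20 most abundant genes left out glycosylation had 7, translocation 7 and sensors 5, and without the filter degradation had 11 and translocation 7. With 1 library left out the 5 counts ran from 3 to 16, 3 to 11, 4 to 24, 2 to 20 and 4 to 13. Each was highest without celastrol replicate 2, and each was lowest without ANIT replicate 2 or celastrol replicate 1. Rises, 2 in folding and 1 in sensors, became 0 and 0 with a mean of at least 5 FPKM. Dnajc18, Fkbp7 and Chac1 did not reach that mean and so were not tested there. After quantile normalization the rises were 5 and 2, and translocation had 1. Folding had 1 when rescaled to TPM and 0 to 3 with 1 library left out.

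Log2 fold changes that changed sign belonged to genes that passed neither way. Under median-ratio scaling they were 0.04 for Calr, 0.03 for Dnajb11, 0.14 for Sdf2l1, 0.06 for Creld2, 0.14 for Edem1 and 0.08 for Sec62. After quantile normalization they were 0.07 for Dnajb11, 0.23 for Sdf2l1, 0.16 for Creld2, 0.24 for Edem1 and 0.19 for Sec62. With the 20 most abundant genes left out they were 0.01 for Sdf2l1 and 0.0 for Edem1, and Ern1 had -0.08 when rescaled to TPM. With 1 library left out Dnajb11 ran from -0.35 to 0.01 (above 0 without celastrol replicate 2), Sdf2l1 from -0.32 to 0.24 and Creld2 from -0.44 to 0.28 (both above 0 without ANIT replicate 1 or celastrol replicate 2), Ern1 from -0.11 to 0.13 (below 0 without ANIT replicate 3 or celastrol replicate 3), and Derl3 from -0.12 to 0.68 (below 0 without ANIT replicate 3 or celastrol replicates 1 or 2).

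With the replicate number as a block 12 of the 36 genes fell, 8 of them among the 11, and Hspa5, Hyou1, Manf and Atf6 joined them; Canx, Sec61b and Sec63 were lost. The numbers did not show pairing: deviations of same-numbered libraries correlated at 0.149, 0.231 and -0.0917, and ANIT and celastrol replicates 3 did not correlate best with each other. Estimated depth limits Derl3 most, whose lowest value was 2.45 FPKM.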

Other observations

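Outside the 36 genes, 27 further genes had an ERSE in a RefSeq promoter window, and 7 of them were tested. Of these 1 was lower with celastrol (Pan2, log2 fold change -0.34) and none was higher by limma, with a median log2 fold change of -0.10 and a median ratio of celastrol replicate 2 to the mean of celastrol replicates 1 and 3 of 1.11. Alg12, which adds mannose to the glycan precursor, measured 6.54, 4.84 and 5.12 FPKM in the ANIT libraries against 6.24, 3.66 and 5.48 FPKM under celastrol, with a ratio of 0.625. Ratios were lower still in Acnat2 (0.392) and Xlr3a (0.0518). Both had positive log2 fold changes, at 1.22 and 1.11, and neither passed. Xlr3a measured 0.25, 0.33 and 1.62 FPKM in the ANIT libraries against 7.28, 0.27 and 3.14 FPKM under celastrol. Its ratio therefore rests on a celastrol replicate 2 value under 1 FPKM. These genes were looked at after the values of the 36 genes had been seen.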
